A study of Mus musculus with 12 samples.

Results

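The 9 genes described here sense, take up or export sterols: Srebf2, Srebf1, Scap and Insig1 of the SREBP system, the liver X receptor genes Nr1h2 and Nr1h3, Mylip, Abca1 and Abcg1. They were chosen by name as regulators and transporters of the SREBP and liver X receptor (LXR) pathways, 9 of 21887 protein-coding genes with a position in the gene table. Trimethylation of histone H3 at lysine 4 (H3K4me3), found at active promoters, and at lysine 27 (H3K27me3), laid down by Polycomb, was mapped by CUT&Tag in mouse PyMT derived organoids, also called tumoroids and spheroids, of WT genotype and labelled breast cancer. PyMT is a mammary tumour model in which the polyoma middle T antigen drives the tumour. The groups were SR2, THC and Ctrl, each sampled 3 days after treatment, with 2 libraries per mark and group, 12 in all. What SR2 stands for, the doses and the promoter behind PyMT are not given in the sources used here, and the labels do not say whether replicates came from separate cultures. In the labels, replicates 1 and 2 are batches 1 and 2. The series title names CB2R, a cannabinoid receptor, luminal differentiation and plasticity as its subject.

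The SREBP proteins are transcription factors made as membrane precursors. When cellular sterol is low, Scap escorts them to the Golgi, where proteases release the part that activates genes of sterol synthesis and uptake; when sterol is high, Insig1 holds Scap back. The LXRs are nuclear receptors for oxysterols. They act with retinoid X receptors on genes for efflux (Abca1, Abcg1), for breakdown of the LDL receptor (Mylip) and for fatty acid synthesis (Srebf1).

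The promoters of the genes that the results turn on are printed below as 250 bases before and 50 after the annotated start, 5′ to 3′, from RefSeq's GRCm38.p6, the assembly of mm10. Srebf2 lies at chr15:82147019-82147318 on the + strand and Insig1 at chr5:28071162-28071461 on the + strand. Srebf1 start 3 lies at chr11:60210422-60210721, Abca1 at chr4:53159846-53160145 and Srebf1 start 1 at chr11:60222532-60222831, all on the − strand. Capitals mark a sterol regulatory element (ATCACCCCA) in Srebf2, an E-box (CACGTG) in Insig1 and Abca1, and a repeat (TGACCG and TAACCC with any 4 bases between them) in Srebf1 start 3 and Abca1. Srebf1 start 1 is shown because its mark was listed in Ctrl libraries alone.
Srebf2: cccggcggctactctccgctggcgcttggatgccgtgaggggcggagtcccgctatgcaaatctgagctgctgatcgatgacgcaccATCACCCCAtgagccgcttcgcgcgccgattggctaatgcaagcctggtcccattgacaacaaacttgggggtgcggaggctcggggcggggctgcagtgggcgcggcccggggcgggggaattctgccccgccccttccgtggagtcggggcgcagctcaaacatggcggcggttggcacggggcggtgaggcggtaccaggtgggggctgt
Insig1: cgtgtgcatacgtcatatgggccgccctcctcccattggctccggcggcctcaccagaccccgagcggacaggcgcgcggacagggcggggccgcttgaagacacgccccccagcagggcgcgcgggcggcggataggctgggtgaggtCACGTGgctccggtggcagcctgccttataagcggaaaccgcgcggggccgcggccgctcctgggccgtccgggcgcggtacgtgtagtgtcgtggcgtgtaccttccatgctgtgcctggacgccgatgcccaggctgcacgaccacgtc
Srebf1 start 3: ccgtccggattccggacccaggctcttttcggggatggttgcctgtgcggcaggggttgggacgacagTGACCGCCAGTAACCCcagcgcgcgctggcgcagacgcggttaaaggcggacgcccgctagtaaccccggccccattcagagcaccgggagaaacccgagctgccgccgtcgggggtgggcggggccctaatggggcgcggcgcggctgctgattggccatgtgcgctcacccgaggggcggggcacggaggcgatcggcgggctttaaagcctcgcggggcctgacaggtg
Abca1: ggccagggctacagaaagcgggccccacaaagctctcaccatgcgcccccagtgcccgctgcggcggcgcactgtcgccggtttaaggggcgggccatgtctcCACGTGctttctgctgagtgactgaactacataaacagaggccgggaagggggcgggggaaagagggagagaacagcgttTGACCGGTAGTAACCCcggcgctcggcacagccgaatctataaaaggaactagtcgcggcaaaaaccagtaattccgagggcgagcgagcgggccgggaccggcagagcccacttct
Srebf1 start 1: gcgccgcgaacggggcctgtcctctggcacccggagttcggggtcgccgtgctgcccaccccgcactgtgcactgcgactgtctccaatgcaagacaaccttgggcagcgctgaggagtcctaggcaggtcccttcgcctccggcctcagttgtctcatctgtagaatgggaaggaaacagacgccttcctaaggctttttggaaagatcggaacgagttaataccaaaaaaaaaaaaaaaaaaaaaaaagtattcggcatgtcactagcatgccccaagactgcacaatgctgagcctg

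Both strands of 32851 promoters of this length were searched. The sterol regulatory element, the form SREBPs bind, was in 0.28% of all promoters and in 1 of the 12 annotated promoters of the 9 genes, that of Srebf2, where its first base lay 163 bases before the start and under a peak in all 6 H3K4me3 libraries. The E-box, which SREBPs and other helix-loop-helix factors bind, was in 7.15% of promoters and in 4 of the 12: Insig1, Abca1 and both overlapping promoters of Scap. The Scap promoters hold the same site, so it is counted more than once. Peaks covered the Abca1 E-box in SR2 replicate 2 and Ctrl replicate 2 alone. The consensus repeat of LXR, AGGTCA given again after any 4 bases, was in 0.0152% of promoters and in none of the 12. The variant repeat was written from letters seen in these promoters, so its count is a description only. It occurred in 3 of the 32851 promoters (0.00913%), among them Abca1, 67 bases before the start, and Srebf1 start 3, 182 bases before the start. Peaks covered the Abca1 repeat in SR2 replicates 1 and 2, THC replicate 2 and Ctrl replicates 1 and 2, but not in THC replicate 1; they covered that of Srebf1 start 3 in SR2 replicate 1 and Ctrl replicate 2. CCAAT, the NF-Y motif, was in 37.4% of promoters and 5 of the 12, and GGGCGG, the Sp1 motif, in 35.7% and 8 of the 12. Both Scap promoters, which share a GGGCGG site, are counted among the 8. GC content was 50.7% to 71.7% in the 12 promoters, against a median of 52.7% over all promoters. The ratio of observed to expected CpG, a C followed by a G, was 0.277 to 0.988, against a median of 0.384. CACGTG and GGGCGG both hold a CpG. The part of GC or CpG content in their counts was not tested. None of these motifs overlapped another in the 5 printed promoters. A match is a run of letters and was not tested as a binding site.

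The H3K4me3 lists held 14812 and 15190 peaks in SR2, 11924 and 13229 in THC, and 18383 and 16442 in Ctrl (replicates 1 and 2). THC replicate 1 stood apart, with the shortest list, a median −log10 q of 10.3 against 18.9 to 33.6 in the other 5, and a lowest background pileup of 0.752 against 1.02 to 1.52. Of the 24596 H3K4me3 regions made by merging overlapping peaks, 15772 were marked in at least 2 libraries and tested. All 6 epithelial markers had a region, and Epcam, Cdh1 and Krt8 were marked in all 6 libraries, while Krt18, Krt5 and Krt14 lacked a peak only in THC replicate 1. In bulk libraries, fewer cells with a mark and less mark per cell cannot be told apart.

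The 9 genes had 11 H3K4me3 start regions within 1 kb of an annotated start, 3 of them at Srebf1. Abcg1 has no start in the promoter table, so its region was taken at the gene end at chr17:31057694, with no strand. Both Ctrl libraries marked all 11, both SR2 libraries 10, and the THC libraries 8 and 9. In all 6 libraries 8 of the 11 were marked, in 7 of the 9 genes; over all protein-coding start regions the share was 77.1% (9203 of 11942). The regions of Srebf1 start 1, Nr1h3 and Abcg1 were each without a peak in at least 1 library.

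**Figure D1:**
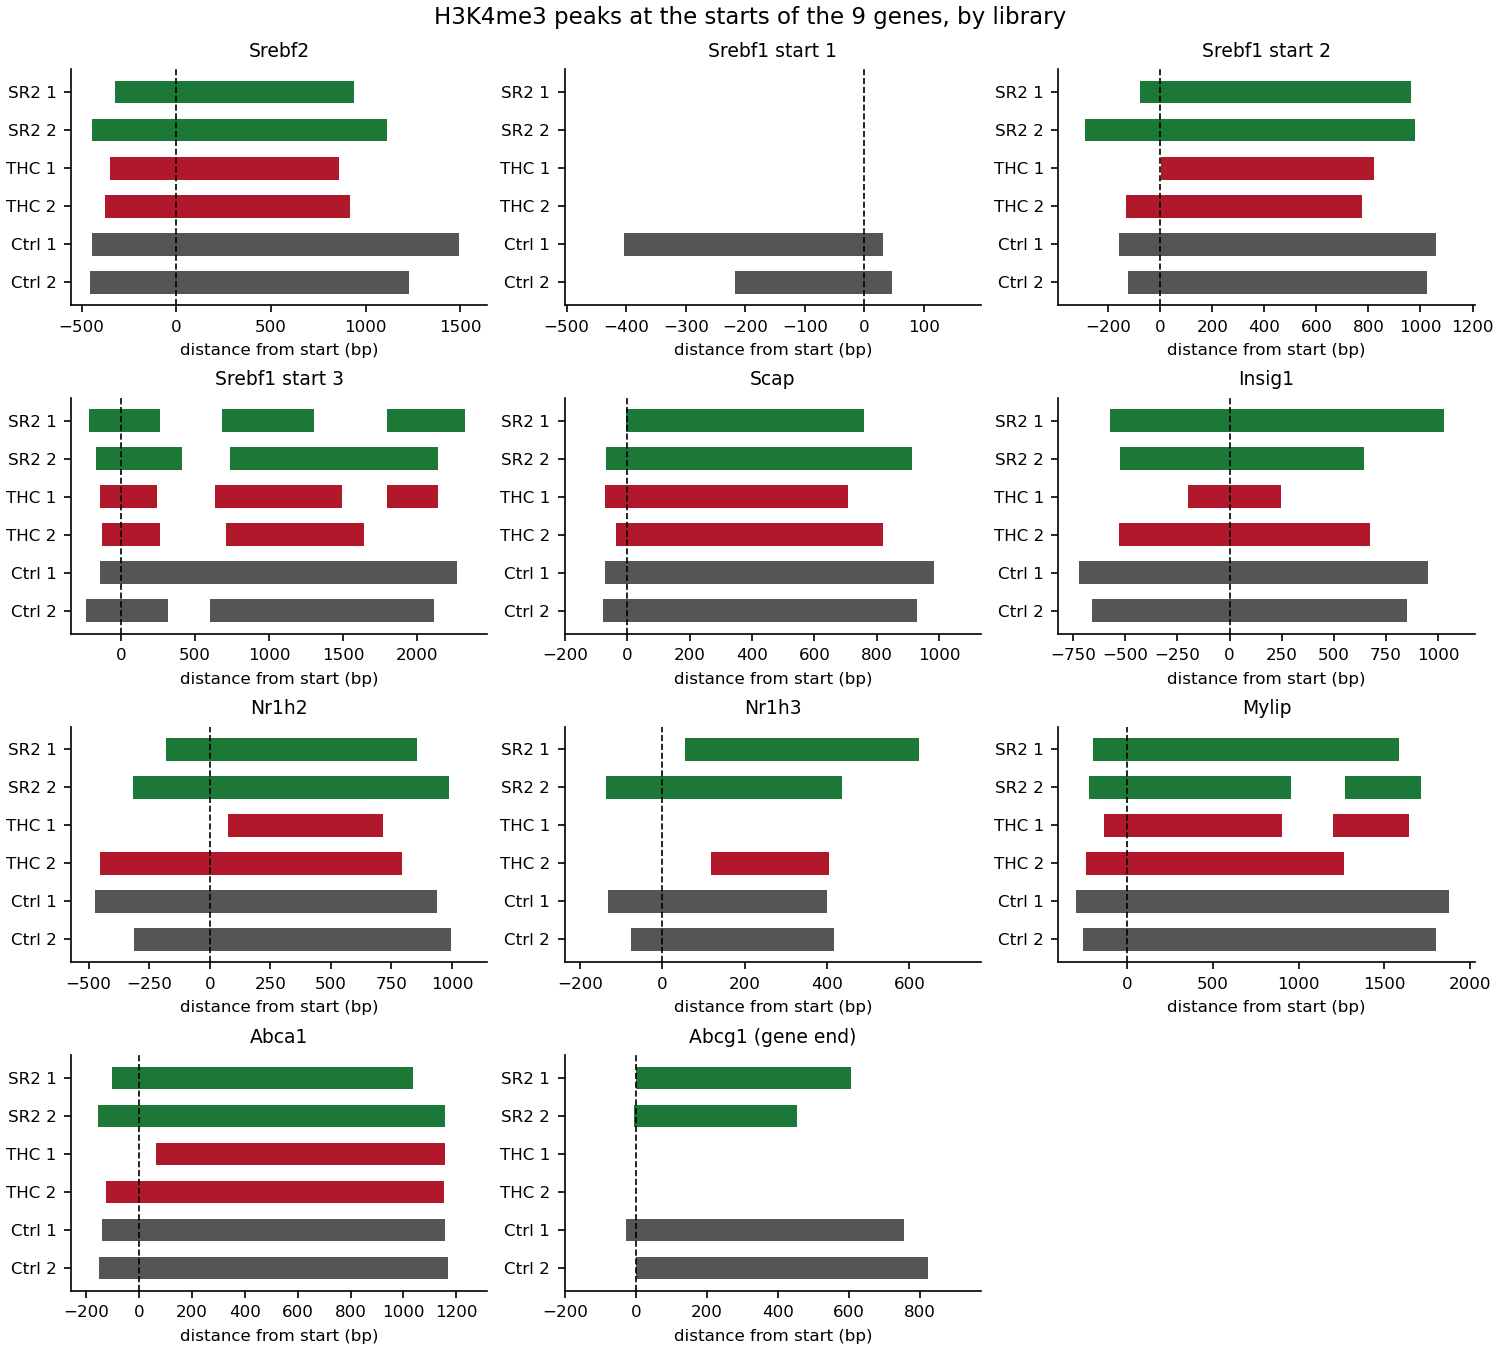
Extent of each library's H3K4me3 peaks at the 11 start regions, in bp from the start (dashed line, positive into the gene; for Abcg1 from the gene end). Bars are peaks in SR2 (green), THC (red) and Ctrl (grey) libraries; Srebf1 start 1 has bars in Ctrl alone, and Abcg1 has none in THC.

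Srebf2 encodes SREBP-2, the main SREBP of cholesterol synthesis. At its start (chr15:82146813-82148763), peaks covered 1264 and 1560 bp in SR2 libraries, 1216 and 1295 bp in THC libraries, and 1941 and 1684 bp in Ctrl libraries. Both treated groups lay below Ctrl without overlap, and SR2 and THC overlapped. The shorter length was mostly on the gene side: peaks reached 937 and 1113 bp into the gene in SR2, 862 and 916 bp in THC, and 1494 and 1227 bp in Ctrl. The sterol regulatory element printed above stayed covered throughout. Breadth was compared with limma on log2(covered bp + 200), each library centred on its median over the regions marked in all 6, so that log2 changes are relative to that median and understate low values. For Srebf2 the log2 change was −0.18 (SE 0.11, adjusted p 0.848) for SR2 and −0.09 (SE 0.11, adjusted p 0.647) for THC against Ctrl. The THC value turns to 0.02 without THC replicate 2.

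Srebf1 encodes SREBP-1a and SREBP-1c from separate starts; the promoter table does not say which start belongs to which protein. Start 1, the most upstream of the 3 (region chr11:60222535-60222984), had no peak in SR2 or THC libraries, against 435 and 264 bp in Ctrl libraries. The Ctrl peaks were weak ones, at percentiles 16.3 and 15.8 of their own lists by the authors' −log10 q, with the authors' fold enrichment at 2.59 and 2.85. By limma the log2 change was −1.30 (SE 0.33, unadjusted p 0.00766, adjusted p 0.127) for SR2 and −1.06 (SE 0.33, unadjusted p 0.0181, adjusted p 0.149) for THC against Ctrl. Neither passed the adjusted threshold of 0.05, and with quantile normalization the SR2 value shrinks to −0.10 and the THC value turns to 0.31. No treated library had a peak here, so 0.31 shows no wider region. The gap between −1.30 and −1.06 comes from centring, as both are −1.44 without it. The region was tested only because both Ctrl libraries marked it. A narrower value was all but set by that filter, so these p-values give no support for a change. When peaks under a −log10 q of 5 were dropped, the region had no peak in any library.

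Start 2 of Srebf1 (chr11:60219568-60220918) was marked throughout, with 1040 and 1271 bp in SR2, 819 and 908 bp in THC, and 1218 and 1152 bp in Ctrl libraries. SR2 overlapped Ctrl, and both THC libraries lay below the other 4. Against Ctrl, limma gave a log2 change of 0.10 (SE 0.10, adjusted p 0.938) for SR2 and 0.00 (−0.00382, SE 0.10, adjusted p 0.984) for THC; the SR2 value turns to −0.04 without centring, and the THC value to 0.09 without THC replicate 2. Start 3 (chr11:60208146-60210706), downstream of it, was the longest of the 11 merged regions (2561 bp), and peaks covered 1636 and 1992 bp in SR2, 1594 and 1327 bp in THC, and 2411 and 2062 bp in Ctrl libraries. It was 1 unbroken peak in Ctrl replicate 1, 2 peaks in Ctrl replicate 2, SR2 replicate 2 and THC replicate 2, and 3 peaks in SR2 replicate 1 and THC replicate 1. Both treated groups lay below both Ctrl libraries. The limma log2 change was −0.14 (SE 0.18, adjusted p 0.975) for SR2 and −0.18 (SE 0.18, adjusted p 0.578) for THC; the THC value turns to 0.09 without THC replicate 2.

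Scap, the sterol-sensing escort of the SREBPs, had the strongest peak of the 9 genes in all 6 lists, at percentiles 85.1 to 98.9 of its own list by the authors' −log10 q. Covered lengths at its start (chr9:110333212-110334272) were 766 and 984 bp in SR2, 779 and 858 bp in THC, and 1056 and 1007 bp in Ctrl. All 4 treated libraries lay below both Ctrl libraries. In limma the change was −0.06 (SE 0.12, adjusted p 1.00) for SR2 and 0.10 (SE 0.12, adjusted p 0.635) for THC on the log2 scale, and without centring the THC value turns to −0.27. Without SR2 replicate 1 the SR2 value turns to 0.03.

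Insig1, the sterol-dependent anchor of Scap and itself a known SREBP target, varied most between replicates of a treatment among the regions marked throughout. Peaks covered 1598 and 1174 bp in SR2, 447 and 1203 bp in THC, and 1674 and 1513 bp in Ctrl libraries (chr5:28070692-28072438). Both THC libraries lay below Ctrl, THC replicate 1 far below all others, and SR2 overlapped Ctrl. In THC replicate 1 the peak reached 199 bp before and 247 bp past the start, against 720 and 953 bp in Ctrl replicate 1; the E-box printed above was covered in all 6 libraries. By limma the log2 change was −0.05 (SE 0.29, adjusted p 1.00) for SR2, which turns to 0.19 without SR2 replicate 2, and −0.53 (SE 0.29, unadjusted p 0.118, adjusted p 0.316) for THC. The THC value rests on replicate 1: it was −0.11 without THC replicate 1 and −0.94 without THC replicate 2.

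**Figure D2:**
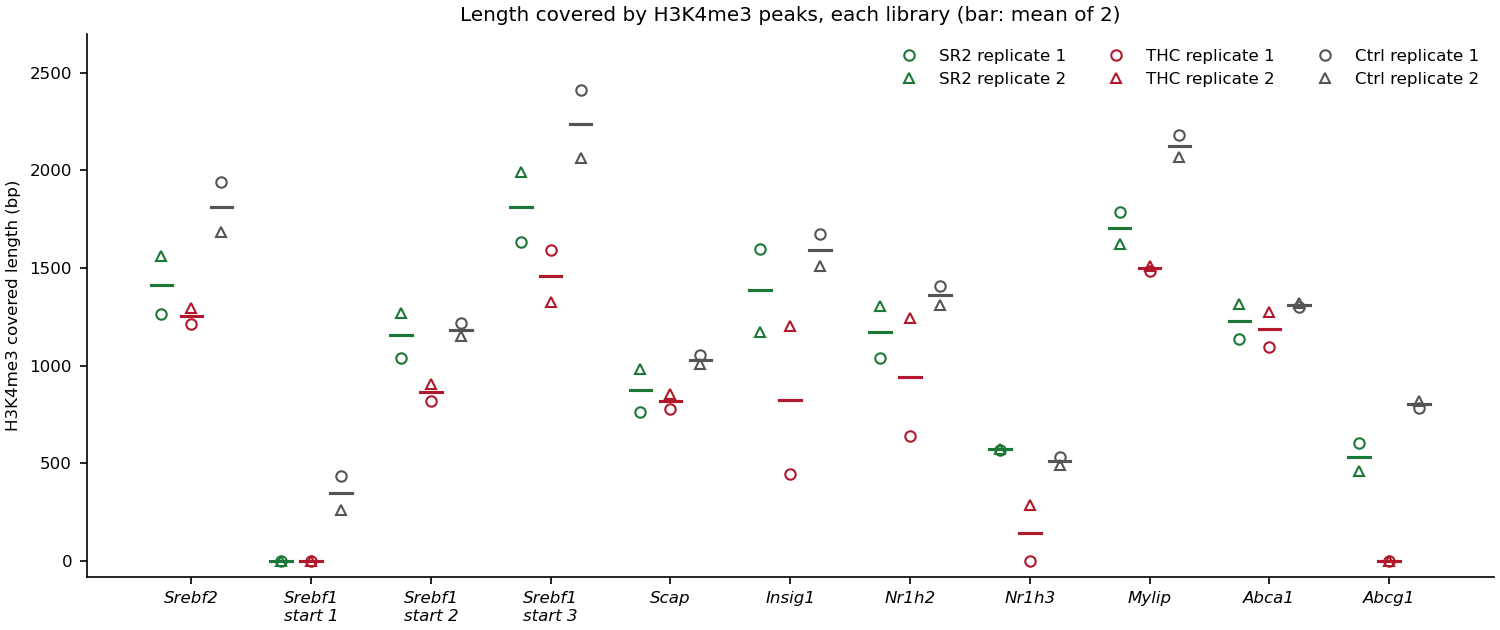
Covered length in bp (y axis) of each H3K4me3 library at each start region (x axis), with SR2 in green, THC in red and Ctrl in grey; circles are replicate 1, triangles replicate 2 and bars the mean of 2. THC points lie below both Ctrl points in all 11 regions, at 0 bp in both libraries for Srebf1 start 1 and Abcg1.

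Nr1h2 encodes LXRβ, the broadly expressed LXR. Its start region (chr7:44552969-44554437) had 1039 and 1307 bp in SR2, 639 and 1245 bp in THC, and 1411 and 1309 bp in Ctrl libraries. All 4 treated libraries lay below both Ctrl libraries, SR2 replicate 2 by only 2 bp, and THC replicate 1 was well below the rest. In THC replicate 1 the peak began 76 bp inside the gene and covered none of the 300-base promoter, which was covered whole in SR2 replicate 2, THC replicate 2 and both Ctrl libraries and for 231 bases in SR2 replicate 1. The limma log2 change was −0.05 (SE 0.17, adjusted p 1.00) for SR2 and −0.12 (SE 0.17, adjusted p 0.678) for THC; the THC value turns to 0.14 without THC replicate 1, and the SR2 value to 0.04 without SR2 replicate 1.

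Nr1h3 encodes LXRα, the LXR known from liver, fat and macrophages. At its 2 neighbouring starts (chr2:91194492-91195253), peaks covered 571 and 574 bp in SR2 and 533 and 493 bp in Ctrl libraries; THC replicate 1 had no peak and THC replicate 2 had 287 bp. This was the 1 region of the 11 where both SR2 libraries lay above both Ctrl libraries, which held for 1.68% of protein-coding start regions. Both THC libraries lay below SR2 and Ctrl. The THC replicate 2 peak was weak, at percentile 13.1 of its list, against 31.3 and 43.0 for SR2 and 43.2 and 35.3 for Ctrl, each within its own list. By limma the log2 change was 0.25 (SE 0.43, adjusted p 1.00) for SR2 against Ctrl, −0.81 (SE 0.43, unadjusted p 0.110, adjusted p 0.308) for THC against Ctrl, and −1.07 (SE 0.43, unadjusted p 0.0496, adjusted p 0.575) for THC against SR2. Without THC replicate 1 the last 2 values were −0.30 and −0.57, and without THC replicate 2 they were −1.30 and −1.56. With quantile normalization the THC against Ctrl value turns to 0.18. The gene table extends Nr1h3 upstream to 91202829, where an H3K4me3 region (chr2:91202109-91203292) also holds the start of Acp2. That region had 944 and 1063 bp in SR2, 628 and 1170 bp in THC, and 1151 and 1020 bp in Ctrl libraries, and cannot be given to either gene alone.

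Mylip encodes IDOL, the ubiquitin ligase that sends the LDL receptor to lysosomes and so limits sterol uptake. Its start region (chr13:45389440-45391622) was broad, with 1785 and 1624 bp in SR2, 1486 and 1513 bp in THC, and 2183 and 2068 bp in Ctrl libraries. The 3 groups did not overlap: THC was lowest and Ctrl highest. The limma log2 change was −0.15 (SE 0.13, adjusted p 0.921) for SR2 and −0.07 (SE 0.13, adjusted p 0.735) for THC after centring, and the THC value turns to 0.07 without THC replicate 2. Within 1 kb of the start the centred values turn to 0.02 for SR2 and 0.17 for THC. Peaks began 199 and 222 bp before the start in SR2, 137 and 244 bp in THC, and 302 and 261 bp in Ctrl, so all treated libraries were shorter on the promoter side too. Into the gene they reached 1585 and 1715 bp past the start in SR2, 1644 and 1268 bp in THC, and 1880 and 1806 bp in Ctrl, with a gap between 2 peaks in SR2 replicate 2 and THC replicate 1. A further region inside Mylip (chr13:45402185-45403145) had 0 and 961 bp in SR2, no peak in THC, and 445 and 440 bp in Ctrl libraries. The 6 remaining regions inside the 9 genes, 2 in Srebf2 and 1 each in Srebf1, Scap, Abca1 and Abcg1, were each marked in a single Ctrl library, over 285 to 469 bp.

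Abca1 is the transporter that loads cholesterol onto lipid-poor apolipoprotein A-I. Its start region (chr4:53158727-53160053) had 1139 and 1317 bp in SR2, 1097 and 1278 bp in THC, and 1300 and 1321 bp in Ctrl libraries. SR2 overlapped Ctrl, and THC lay slightly below Ctrl, with replicate 1 the shortest. On the gene side the peak ended 1036 and 1158 bp past the start in SR2, 1158 and 1153 bp in THC, and 1157 and 1168 bp in Ctrl, so SR2 replicate 1 alone ended early. On the promoter side, peaks covered 152 and 208 of the 300 promoter bases in SR2, 0 and 174 in THC, and 192 and 202 in Ctrl. Relative to the centring, limma gave a log2 change of 0.05 (SE 0.09, adjusted p 0.997) for SR2 and 0.25 (SE 0.09, unadjusted p 0.0261, adjusted p 0.168) for THC; the SR2 value turns to −0.08 and the THC value to −0.13 without centring and the THC value turns to −1.12 when peaks under a −log10 q of 5 were dropped, which left THC replicate 1 without an Abca1 peak. The summit pileup of the Abca1 peak, the number of overlapping tags at its highest point, was 23 and 39 in SR2, 12 and 22 in THC, and 63 and 37 in Ctrl. Pileups were not scaled to library depth, which is unknown, and the part of depth or enrichment in these values was not tested. The medians over the marked regions of the 9 genes were 45.5 and 82.0 in SR2, 23.0 and 56.0 in THC, and 104 and 82.0 in Ctrl.

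Abcg1 is the transporter that passes cholesterol to high-density lipoprotein. Its region (chr17:31057666-31058516) had 607 and 460 bp in SR2, no peak in either THC library, and 783 and 822 bp in Ctrl libraries. The 3 groups did not overlap, and THC was at 0 against 783 bp in batch 1 and 0 against 822 bp in batch 2. Summit pileups were 16 and 20 in SR2 and 28 and 17 in Ctrl, among the lowest of the 9 genes, and the peaks stood at percentiles 27.5 and 29.0 of the SR2 lists and 40.7 and 27.6 of the Ctrl lists. The region stayed without a peak in THC and with one in SR2 and Ctrl when the 11924 strongest peaks of each list were used, and when peaks under a −log10 q of 5 were dropped. By limma the log2 change was −1.95 (SE 0.36, unadjusted p 0.00186, adjusted p 0.128) for THC against Ctrl, −1.63 (SE 0.36, unadjusted p 0.00440, adjusted p 0.326) for THC against SR2, and −0.32 (SE 0.36, adjusted p 0.955) for SR2 against Ctrl. The region was tested only through its SR2 and Ctrl peaks. With no peak in either THC library, a narrower THC value was all but set. The p-values for THC therefore measure no spread in THC and give no support for a change.

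**Figure D3:**
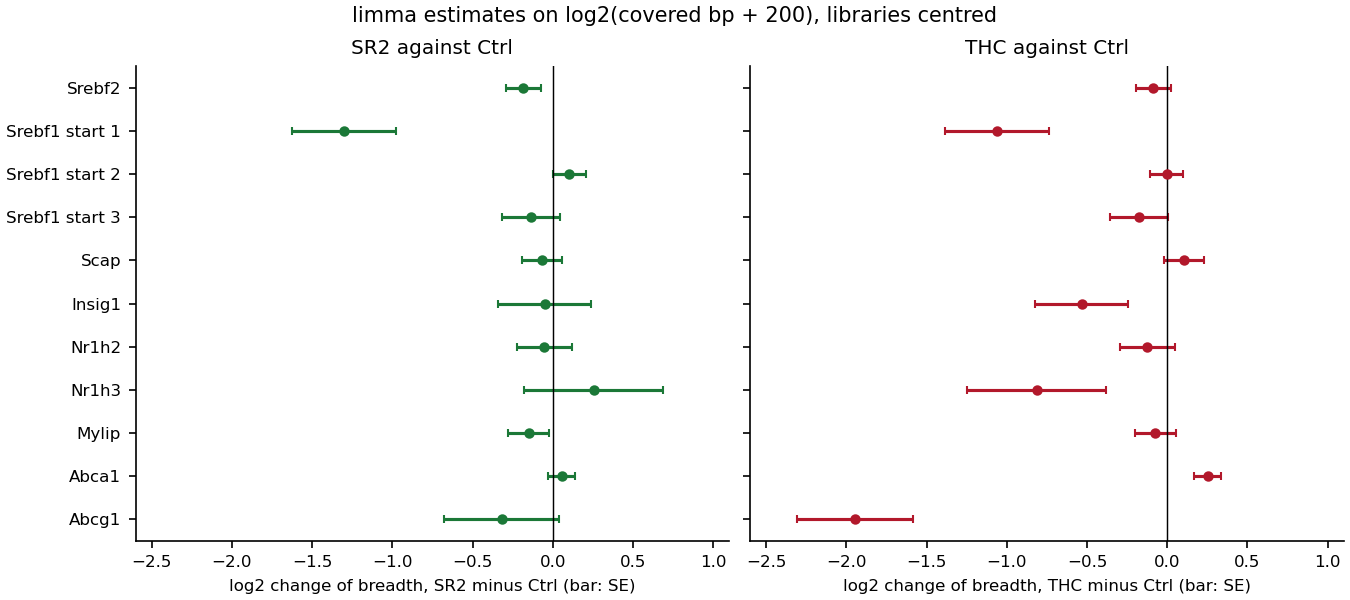
Log2 change of H3K4me3 breadth (x axis, limma on log2(covered bp + 200), bars are SE) for the 11 start regions, SR2 minus Ctrl on the left and THC minus Ctrl on the right. Abcg1 has the lowest THC value, −1.95, Srebf1 start 1 the lowest SR2 value, −1.30, and no region passed the adjusted threshold; the sign of Abca1 in THC turns without centring.

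Against Ctrl, limma called 0 of 15772 regions at an adjusted p under 0.05 in either comparison, so 0.0% in each. The smallest adjusted p over all regions was 0.122 for SR2 and 0.128 for THC, the last of these shared by Abcg1. At an unadjusted p under 0.05, SR2 gave 1405 narrower regions (8.91%) and 103 wider ones (0.653%), and among the 11 regions 1 narrower, Srebf1 start 1, and 0 wider. THC gave 2903 narrower (18.4%) and 695 wider (4.41%), and among the 11 regions 2 narrower, Abcg1 and Srebf1 start 1, and 1 wider, Abca1, whose sign turns without centring. Over protein-coding start regions alone, the kind the 11 belong to, the shares narrower and wider were 3.69% and 0.56% for SR2 and 11.4% and 5.76% for THC. With 11 regions, 1 or 2 of them narrower is not set apart from any of these shares. Srebf1 start 1, counted as narrower for both treatments and alone for SR2, was tested only because both Ctrl libraries marked it. That filter left it little room to come out other than narrower. Abcg1 was likewise tested only through its SR2 and Ctrl peaks. As neither THC library had a peak there, its p-values for THC give no support for a change. Without THC replicate 2, where the remaining THC library is assumed to vary like the other groups, the log2 change of Abcg1 for THC was −1.80. That fit leaves THC replicate 1 alone, the library that stood apart. Without THC replicate 1 the log2 change was −2.08. Over its 16 other settings, the adjusted p of Abcg1 in THC ran from 0.0140 to 0.752.

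Shorter covered length in THC than in Ctrl was common to most genes. Both THC libraries lay below both Ctrl libraries at 11 of the 11 regions, which held for 83.5% of protein-coding start regions, and above at 0 (0.0711%). Both SR2 libraries lay below both Ctrl libraries at 7 of the 11, against 48.8% of start regions. Marking in Ctrl replicates 1 and 2 with no THC peak was seen at 2 of the 11, Srebf1 start 1 and Abcg1, against 6.59% of start regions. For SR2 it was seen at 1, Srebf1 start 1, against 1.93%; with the 11924 strongest peaks of each list the counts were 1 for THC and 0 for SR2, and without THC replicate 2 the THC count was 3, Nr1h3 being added. The median log2 change of the 11 was −0.06 for SR2 and −0.12 for THC, beside −0.03 and −0.15 over all regions and 0.00423 and −0.03 over protein-coding start regions. Without centring the median over all regions was −0.17 for SR2 and −0.52 for THC, and that of the 11 was −0.20 and −0.50.

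Set against SR2, THC had no region called by limma (0.0% of 15772, smallest adjusted p 0.318). At an unadjusted p under 0.05 there were 1079 narrower regions (6.84%) and 290 wider ones (1.84%), or 6.25% and 2.38% of protein-coding start regions, and among the 11 there were 2 narrower, Abcg1 and Nr1h3, and 0 wider. Both THC libraries lay below both SR2 libraries at 5 of the 11, against 47.9% of start regions, and above at 0 (0.764%). Abcg1 alone of the 11 had a peak in both SR2 libraries and in neither THC library, which held for 2.69% of start regions. Tested through its SR2 and Ctrl peaks, Abcg1 had little room to come out other than narrower. Without THC replicate 2 this comparison called 1189 regions, of which none was among the 11. The median log2 change was −0.04 over the 11 and −0.03 over all regions. The 3 comparisons share libraries, so their values are not independent of each other.

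Abca1, Abcg1 and Nr1h3 are also known as macrophage genes. Of 9 macrophage markers 2, Cd68 and Cd14, had an H3K4me3 region, with summed lengths of 1256 and 1422 bp in SR2, 914 and 1198 bp in THC, and 1726 and 1748 bp in Ctrl. Cd68 had no peak in either SR2 library or in THC replicate 1, 317 bp in THC replicate 2, and 349 and 391 bp in Ctrl, so the SR2 sums are those of Cd14 alone. Ptprc, Adgre1, Csf1r, Itgam, Mrc1, Fcgr1 and Lyz2 had no peak at a start in any library. Of 6 adipocyte markers 2, Lpl and Pparg, had a region, with sums of 1061 and 1613 bp in SR2, 0 and 277 bp in THC, and 2490 and 2020 bp in Ctrl; Adipoq, Plin1, Cidec and Fabp4 had none. Col1a1 was the 1 of 5 fibroblast markers with a region (901 and 1142 bp in SR2, 292 and 360 bp in THC, 1025 and 1045 bp in Ctrl), and Kdr the 1 of 4 endothelial markers (559 and 0 bp in SR2, 0 bp in both THC, 897 and 559 bp in Ctrl). The part of such cells in the values of Abcg1 and Nr1h3 was not tested.

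The genes whose covered lengths over the 6 libraries were most like those of Abcg1 were Ccdc158, Cpsf4l and Zfp984, at Euclidean distances of 0.137, 0.197 and 0.218 on the centred log2 scale, among 11739 genes. Clone-named genes (Gm, Rik) were left out of the choice. Ccdc158, Cpsf4l and Zfp984 had no peak in either THC library, which choosing by likeness to Abcg1 all but ensures. Ccdc158 had 570 and 447 bp in SR2 and 801 and 745 bp in Ctrl. For Abca1 they were Ripk2, Ccdc9 and Kazald1, at distances of 0.0627, 0.0653 and 0.105, and Ripk2 had 1145 and 1301 bp in SR2, 1110 and 1232 bp in THC, and 1337 and 1309 bp in Ctrl.

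A list of 50 other genes of sterol handling was set beside the 9, and 42 of them had a start region, 37 (88.1%) in all 6 libraries. None of the 42 passed the adjusted threshold by limma. At an unadjusted p under 0.05, 9 of 42 were narrower in THC (21.4%, against 11.4% of protein-coding start regions) and 2 wider (4.76%, against 5.76%), and for SR2 3 were narrower (7.14%, against 3.69%) and 0 wider (0.56%). Both THC libraries lay below both Ctrl libraries at 38 of 42 (90.5%, against 83.5% of protein-coding start regions), and both SR2 libraries at 20 (47.6%, against 48.8%). Control-only genes numbered 3 for THC (7.14%, against 6.59%) and 0 for SR2 (against 1.93%), so the THC share is near that of protein-coding start regions in general. The bases differ. The 42 take only the region with the most covered bp of each gene, while the shares count every start region. The 6.59% and 1.93% are also limited to regions marked in both Ctrl libraries.

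The 3 control-only genes for THC have different roles. Nceh1, which hydrolyses stored cholesteryl ester, had 995 and 582 bp in SR2, 0 bp in both THC and 1074 and 690 bp in Ctrl libraries. Abcg4, a transporter of the Abcg1 family, had 0 and 349 bp in SR2, 0 bp in both THC and 624 and 1004 bp in Ctrl. Cyp7b1, an oxysterol hydroxylase, had 0 and 856 bp in SR2, 0 bp in both THC and 968 and 932 bp in Ctrl. All 3 were marked in Ctrl replicates 1 and 2 and in at least 1 SR2 library, and with the 11924 strongest peaks of each list 1 of the 3 counted as control-only for THC.

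In the other roles, the gene with the largest log2 change for THC was still marked in all 6 libraries. Rxra, a partner of the LXRs, had 618 and 797 bp in SR2, 505 and 733 bp in THC, and 1711 and 1577 bp in Ctrl libraries, with all treated libraries far below Ctrl. Scarb1, the receptor that takes up cholesteryl ester from high-density lipoprotein, had 1897 and 1941 bp in SR2, 780 and 970 bp in THC, and 2014 and 1984 bp in Ctrl. Scarb1 was thus short in THC, while its SR2 libraries lay just under Ctrl. Mbtps2, the site-2 protease that releases SREBPs, had 643 and 960 bp in SR2, 450 and 849 bp in THC, and 1569 and 1021 bp in Ctrl. Scd1, the stearoyl-CoA desaturase that both SREBP-1c and LXR activate, had 1940 and 1643 bp in SR2, 500 and 1152 bp in THC, and 2398 and 1727 bp in Ctrl. At the other end, the smallest absolute log2 changes for THC within a role were those of Rnf139, Ncor1, Vldlr, Soat1, Abca7, Cyp46a1 and Lpcat3. They were smallest within their role alone. Abca7 was at −0.55 (limma, unadjusted p 0.0480), with 340 and 819 bp in THC against 1347 and 1091 bp in Ctrl, and Cyp46a1 at −0.29. Rnf139 was at −0.06, Ncor1 at −0.13, Vldlr at −0.01, Soat1 at 0.000396 and Lpcat3 at 0.00935. Soat1, which esterifies cholesterol for storage, had 402 and 617 bp in SR2, 345 and 589 bp in THC, and 655 and 649 bp in Ctrl, so it too was shorter in THC before centring.

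**Figure D4:**
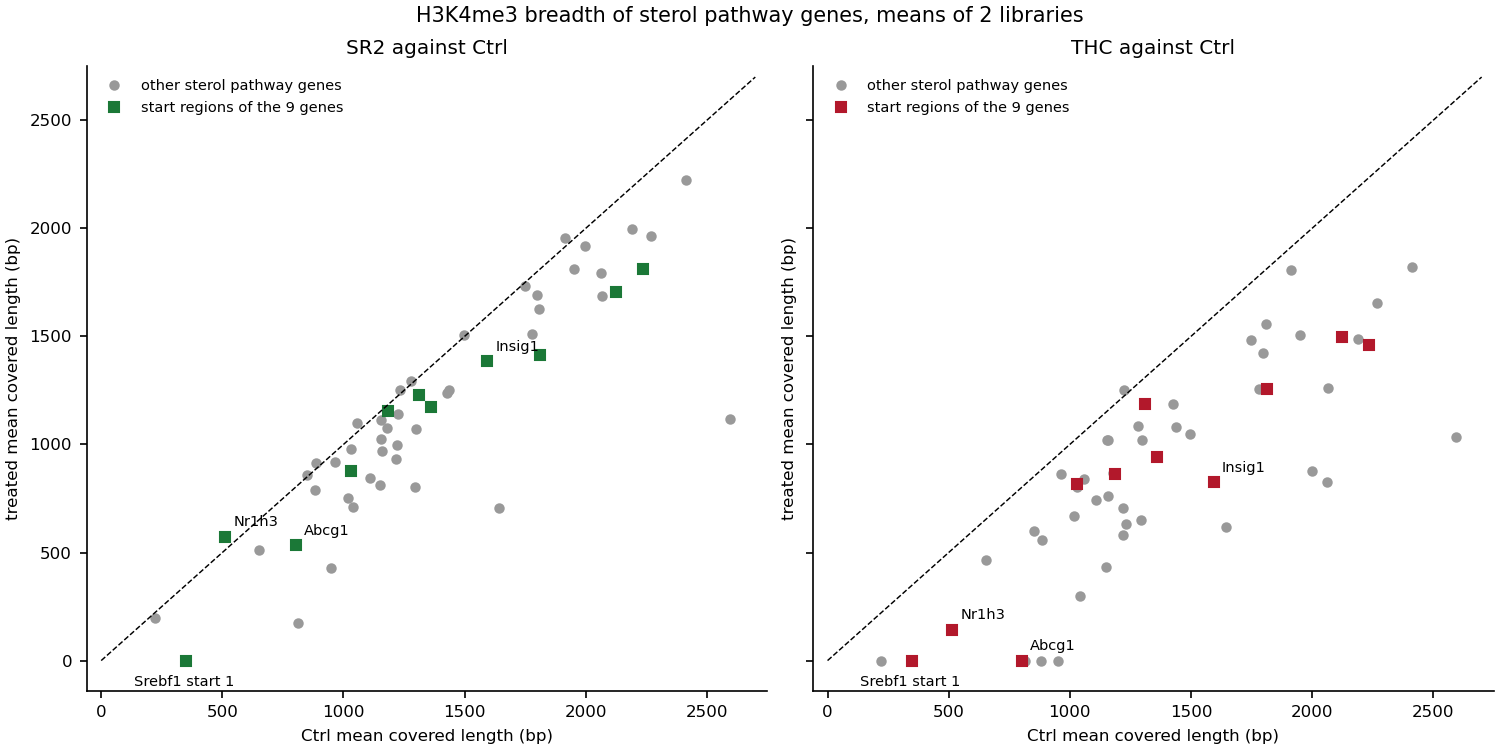
Mean covered length of the treated libraries (y axis, bp) against that of Ctrl (x axis, bp) for the 11 start regions (squares) and the 42 other sterol genes with a region (grey), SR2 on the left and THC on the right; each point is a mean of 2 libraries and the dashed line marks equality. In THC nearly every point lies under the line, and Abcg1 and Srebf1 start 1 lie at 0 bp.

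H3K27me3 peaks were listed at 1 of the 9 genes in any library, about the share of all protein-coding genes (11.7%). Over the genes and 5 kb on either side, 1 broad peak was listed, in Abca1 in Ctrl replicate 2, and none in the 2 SR2, 2 THC and the other Ctrl library. It covered 384 bp (chr4:53130364-53130747) inside the gene, 29148 bp from the start, with the authors' fold enrichment at 3.81 and −log10 q at 1.06, at percentile 2.07 of the 387 peaks of its list. Per library, 2.96% and 0.507% of protein-coding genes had a peak in SR2, 3.07% and 0.137% in THC, and 7.92% and 1.11% in Ctrl. The lists held 840 and 157 peaks in SR2, 984 and 70 in THC, and 2712 and 387 in Ctrl, and their depth is unknown, so a gene without a listed peak is not shown to lack the mark.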

How the data were processed

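H3K4me3 and H3K27me3 peak lists from CUT&Tag were analysed, 1 list per library, so replicates were called separately. Build mm10 and the tools MACS3, bedtools, deepTools, Picard, SAMtools 1.8, Bowtie2 2.5.4 and cutadapt 5.2 are named, without their roles, per the submitters' processing notes. The authors' deposited columns per peak are a score, a fold enrichment (a ratio to the caller's background), the −log10 p and the −log10 q; each served to rank, filter or describe peaks of its own list alone. The labels' protocol and the series' design text name different dissociation enzymes.

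Peaks on chromosomes 1 to 19, X and Y were merged across libraries at an overlap of at least 1 bp, and covered bp were computed per library. Starts came from RefSeq's promoter table of GRCm38.p6, or from either gene end where a gene has no entry; 17492 of 21887 protein-coding genes have one. A consensus region within 1 kb of a start was a start region; where one gene of the pathway or marker lists had several, the one with the most covered bp was used. Regions marked in at least 2 libraries were tested with limma 3.58.1 (trend, R 4.3.3), all 6 libraries entering 1 model of log2(covered bp + 200), with Benjamini-Hochberg adjustment over all regions and a threshold of 0.05. Covered bp is a length that depends on depth. Read totals are not in peak lists; summit pileups were recovered from the deposited fold and −log10 p, and at least 99.97% were whole within 0.005. With 2 against 2 libraries an exact permutation test cannot go below 0.333, so presence of a peak was described beside its share over protein-coding genes. Named pathway genes were the control-only ones and, per role, those with the largest and smallest absolute log2 change for THC.

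Summit pileups of 9956 regions were compared by chi-square, which per degree of freedom was 0.964, 0.806 and 0.874 between replicates of SR2, THC and Ctrl and 0.733 to 1.24 in the 12 pairs of different groups, so no replicate pair stood apart and n stayed at 2. P-values measure the spread between these libraries, which may be technical. The labels give the replicate number as the batch number, which pairs libraries across groups; deviations of same-numbered libraries correlated at −0.0619 (SR2 and Ctrl), 0.0344 (THC and Ctrl) and 0.0479 (THC and SR2) over 15772 regions. The genes and lists were chosen with earlier results of these data known. Other pseudocounts, filters, normalizations, peak sets, a replicate block, left-out libraries and a window of 1 kb around starts were tried, the last of these and the settings for the pathway counts chosen after seeing the data.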

Additional observations from a re-analysis of the deposited data

How the results depend on the processing

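With the replicate block, limma called 0 regions in the 3 comparisons, as without it, and no value of the 11 start regions changed direction or call. Over all settings, 469 of 515 values of the 11 regions kept direction and call, 9 gained a call and 37 reversed; the cause of each was not tested unless stated. Called regions numbered 1059 for SR2 and 1417 for THC against Ctrl with a pseudocount of 50 bp, and 994 and 1914 without centring. For THC against Ctrl they were 39 with regions marked in at least 1 library, 1929 in a fit of the 4 libraries compared and 4 with equal numbers of peaks. Leaving out 1 library gave 0 for SR2 in all 6 cases, 0 to 2183 for THC against Ctrl and 0 to 1189 for THC against SR2, both maxima without THC replicate 2.

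The control-only count for SR2 was 0 without peaks under a −log10 q of 5, with equal numbers of peaks and with at least 500 bp covered, and 1 to 1 without any 1 library; that for THC was 1 with equal numbers of peaks and with at least 500 bp, and 2 to 3 without any 1 library. Without peaks under a −log10 q of 5 the THC count stayed at 2, but with Nr1h3 in place of Srebf1 start 1. The count of genes with H3K27me3 was 0 with −log10 q of at least 2 and 0 to 1 without any 1 library.

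Abcg1 in THC passed the threshold with a pseudocount of 50 bp (log2 −3.66), without centring (−2.33) and with 4 libraries (−1.95). It also passed without THC replicate 2 (−1.80), which leaves THC replicate 1 alone, but not without THC replicate 1 (−2.08). The change was smaller with quantile normalization (−1.07, adjusted p 0.363 by limma) and a pseudocount of 1000 bp (−0.62, adjusted p 0.168). As no THC library had a peak at Abcg1, these passes measure no spread in THC. Srebf1 start 1, tested only through its Ctrl peaks, passed with a pseudocount of 50 bp (−2.81 SR2, −2.53 THC) and without centring (−1.44 in both). Mylip in THC passed without centring (−0.45). With quantile normalization Srebf1 start 1 in SR2 was −0.10.

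Reversed values without centring were, for SR2 against Ctrl, −0.0359 at Srebf1 start 2 and −0.0838 at Abca1; for THC against Ctrl, −0.27 at Scap and −0.13 at Abca1; for THC against SR2, −0.14 at Srebf2, −0.0715 at Scap, −0.16 at Mylip and −0.0418 at Abca1. Quantile normalization gave 0.31 at Srebf1 start 1, 0.0268 at Srebf1 start 2 and 0.18 at Nr1h3 for THC against Ctrl, and a pseudocount of 1000 bp gave 6.66e-05 at Srebf1 start 2. At Srebf1 start 1 no THC library had a peak, so 0.31 shows no wider region. Dropping peaks under a −log10 q of 5 gave −1.12 (THC against Ctrl) and −1.16 (THC against SR2) at Abca1 and −0.16 (THC against SR2) at Mylip; equal numbers of peaks gave 0.20 at Srebf1 start 3 (THC against SR2). Within 1 kb of the start the values were 0.0185 at Srebf2 and 0.0156 at Mylip for SR2 against Ctrl, 0.14 and 0.17 for THC against Ctrl, and 0.0502 at Srebf1 start 3 for THC against SR2.

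Without 1 library, SR2 against Ctrl ranged from −0.29 to 0.19 at Insig1, −0.14 to 0.0391 at Nr1h2 and −0.16 to 0.0317 at Scap. THC against Ctrl ranged from −0.19 to 0.0653 at Mylip, −0.37 to 0.14 at Nr1h2, −0.0749 to 0.0865 at Srebf1 start 2 (0.00229 without Ctrl replicate 2), −0.42 to 0.0909 at Srebf1 start 3 and −0.18 to 0.0246 at Srebf2. THC against SR2 ranged from −0.0519 to 0.21 at Mylip (−0.0358 without SR2 replicate 2), −0.31 to 0.18 at Nr1h2 (0.0180 without SR2 replicate 2), −0.29 to 0.23 at Srebf1 start 3 (0.0386 without SR2 replicate 2) and −0.00290 to 0.21 at Srebf2. With 2 libraries per group and lists of unequal length and unknown depth, differences as small as most of these could not be resolved.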
